A study of Mus musculus with 4 samples.

Results

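Prostaglandins and leukotrienes are short-lived lipid signals that cells make on demand from arachidonic acid, a fatty acid cut from their membranes. Cyclooxygenases turn arachidonic acid into prostaglandin H, which terminal synthases convert to prostaglandin E, prostaglandin D and other prostanoids. In a parallel branch, 5-lipoxygenase makes leukotriene A, from which one enzyme makes leukotriene B, an attractant of neutrophils, and another makes leukotriene C, which acts on vessels. In the brain, prostaglandin E is known for its part in fever, pain and the response to lack of oxygen, and microglia, the resident macrophages, are known to hold much of the machinery of both branches.

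The genes described are 9 of the 32285 listed in each count table, chosen by symbol. They are the cyclooxygenases Ptgs1 and Ptgs2, the prostaglandin E synthase Ptges, the hematopoietic prostaglandin D synthase Hpgds, the prostaglandin E receptor Ptger4, and the leukotriene genes Alox5, Alox5ap, Ltc4s and Lta4h. All 9 symbols were found, and each had UMIs (unique molecular identifiers, which count captured RNA molecules) in all 4 libraries. In all kept cells together the genes ranged from 266 UMIs for Ptgs2 and 648 for Ptges to 127335 for Ltc4s and 158895 for Hpgds.

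Counts came from wild-type C57Bl/6 mice, and the compared groups were aged mice of 18 to 20 months after cardiac arrest (CA), aged sham mice, young mice of 3 to 6 months after CA, and young sham mice. Arrest was brought on by potassium chloride and ended by resuscitation, sham mice had the surgery without it, and all brains were taken on day 3. Leukocytes, recognised by CD45 on their surface, were sorted from perfused brains and put through droplet 3′ sequencing. Each group was 1 library pooled from 3 mice that cannot be told apart in the counts, which leaves no spread between replicates and no test of any difference. Every interval given is a 95% interval of the counting error alone, and does not cover variation between mice, capture or PCR.

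The libraries held 70924569 UMIs in aged CA, 44277472 in aged sham, 115892682 in young CA and 72648041 in young sham. Kept cells numbered 5611, 7083, 9310 and 8120 in the same order, with medians of 10343, 3288, 9612 and 5971.5 UMIs per cell. Each pair of libraries shared 15 to 32 cell barcodes. Aged sham stood apart: it was the shallowest, 804 of its cells carried markers of more than 1 class against 53 to 128 elsewhere, and 82 cells passed an erythroid gate against 0 to 3. Every comparison with aged sham rests on that library, and none could be repeated without it.

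Cell classes were gates on marker genes, so that "microglia" stands for cells that passed the microglial gate. A cell needed UMIs from at least 3 markers of a class, and a second class at no more than 0.7 of the first. Near that limit lay 404 cells just inside and 389 just outside, of 30124. The gates gave 26495 microglia (4822 in aged CA, 5466 in aged sham, 8566 in young CA and 7641 in young sham), 213 border-associated macrophages, 415 monocytes or macrophages, 207 neutrophils, 335 T cells, 114 B cells and 733 neurons. All 12 microglial markers had UMIs in the microglia of each library, and their summed level was 9773 CPM (the gene's UMIs scaled to 1000000 UMIs of the class) in aged CA, 20057 in aged sham, 14955 in young CA and 24070 in young sham. Of the 26495 gated microglia, 24806 lay in clusters that the same markers named microglia. The others included 592 in clusters marked as mixed, 403 in that of border-associated macrophages and 261 in that of astrocytes. Cells in the clusters named microglia, whatever their gate, differed in cluster between libraries. Clusters 0 and 1 held 65.5% of them in aged CA and 35.7% in young CA. Clusters 19 and 6 held 57.2% in aged sham, and clusters 19 and 20 held 81.7% in young sham.

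**Figure D1:**
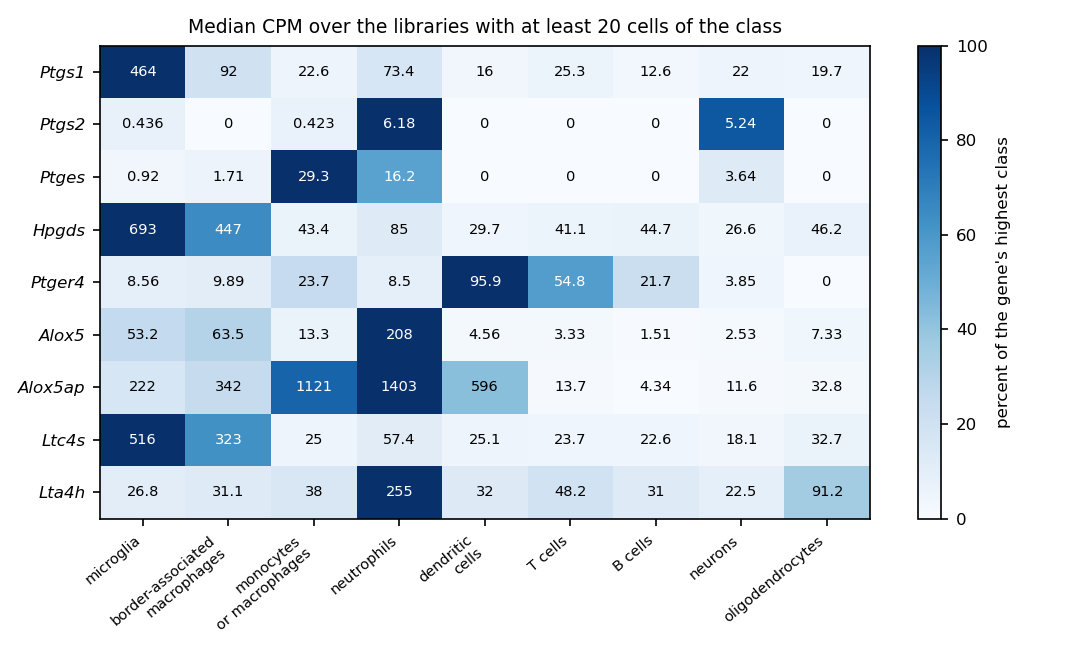
Levels of the 9 genes by cell class. Numbers are the median CPM over the libraries with at least 20 cells of the class (erythroid cells, present in 1 library, are left out), and shading gives that median as a percent of the gene's highest class. Ptgs1, Hpgds and Ltc4s were darkest in microglia, and Alox5, Alox5ap and Lta4h in neutrophils.

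The genes fell into different classes by where they were highest. Ptgs1 and Hpgds were highest in microglia in all 4 libraries, and Alox5, Alox5ap and Lta4h were highest in neutrophils in the 3 libraries with at least 20 neutrophils. Only classes of at least 20 cells were compared, which left out the 19 monocytes or macrophages of aged sham. Aged sham neutrophils had 694 CPM of Alox5ap, below the 984 and 1259 CPM of monocytes or macrophages in the 2 CA libraries. For the remaining 4 genes no single class was highest in every library. Lta4h lost this place with equal weight per cell and with a second list of at most 0.5 of the first, and Alox5ap with no cells left out as mixed. Ltc4s gained it for microglia in Leiden clusters, which group cells by overall expression in place of the gate, and Ptger4 for T cells with a second list of at most 0.5. The Leiden class of border-associated macrophages held 403 cells of the microglial gate and 170 mixed cells, beside 210 of its own gate. Because counts came from the 3′ end and classes differ in total RNA, CPM values are compared between classes for 1 gene at a time and not between genes. A CPM summed over a class cannot by itself tell fewer molecules per cell from fewer expressing cells. Shares of cells with a UMI are given below for some genes.

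Microglia made up 85.9% of kept cells in aged CA, 77.2% in aged sham, 92.0% in young CA and 94.1% in young sham. A large share of UMIs alone thus does not set a gene apart. Microglia held 98.3% of all Ptgs1 UMIs, 97.6% of Ltc4s, 97.5% of Hpgds and 93.1% of Alox5. Their share was smaller for Lta4h (78.6%), Alox5ap (77.6%), Ptger4 (76.1%), Ptges (59.4%) and Ptgs2 (44.4%). Monocytes or macrophages held 22.7% of Ptges and 12.01% of Alox5ap UMIs, and neurons held 39.1% of Ptgs2 UMIs.

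Across the 4 comparisons of microglia, 2 of 9 genes differed by 2-fold or more between young CA and young sham, 2 of 8 between aged CA and aged sham, 0 of 7 between aged sham and young sham, and 2 of 9 between aged CA and young CA. All of these differences were higher in the first-named group, and only genes with at least 50 UMIs over both libraries were counted. Among all genes with that many UMIs, 16.2% differed by 2-fold or more in the young CA comparison, 24.5% in the aged CA comparison, 10.3% between the sham libraries and 12.1% between the CA libraries. Higher alone were 7.67%, 7.46% and 6.18% of all genes in the young CA, the aged CA and the between-CA comparison. Each count of members rests on 2 genes, so what follows describes single genes.

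**Figure D2:**
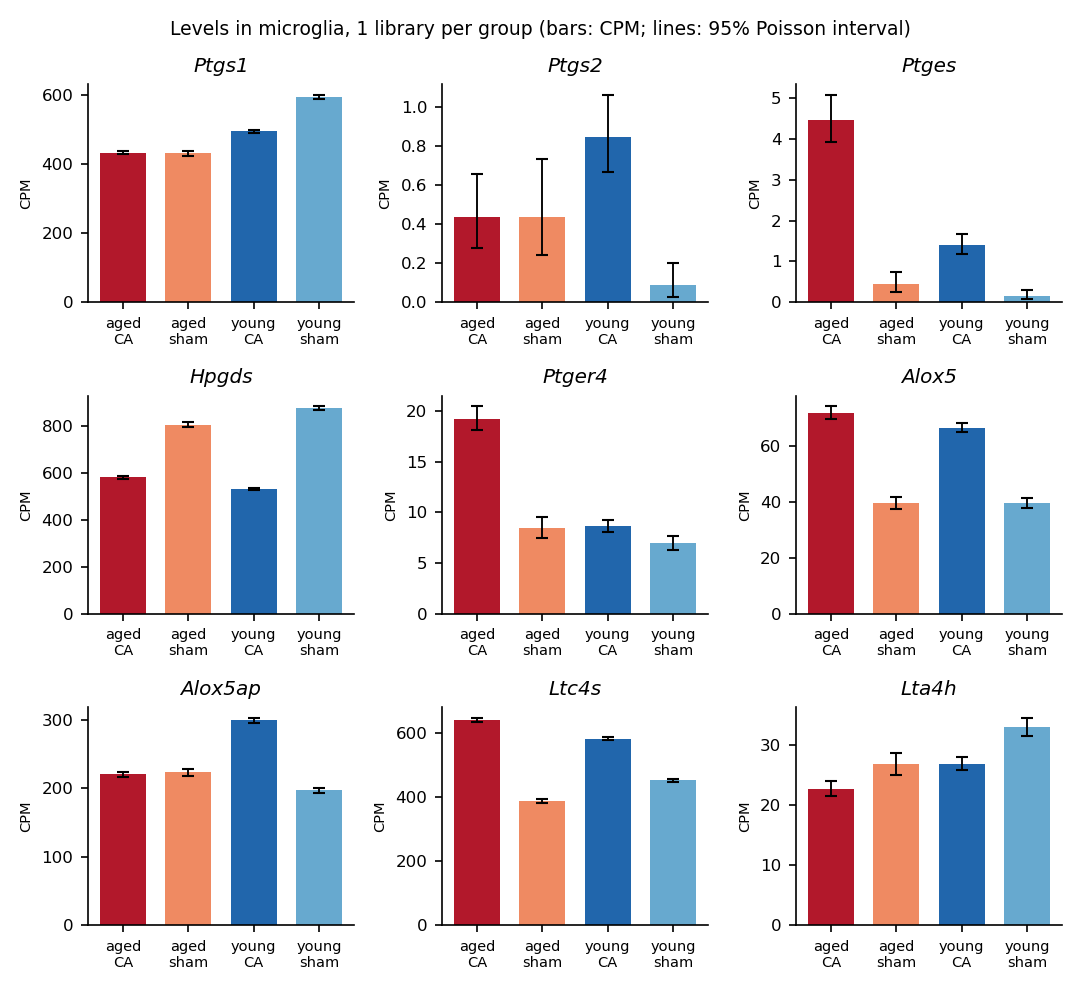
Levels of the 9 genes in microglia of each library. Bars are CPM and lines are 95% Poisson intervals, with a separate vertical axis for each gene. Ptges was higher in both CA libraries than in both sham libraries, Hpgds was lower, and Ptger4 stood highest in aged CA.

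Ptgs1 encodes cyclooxygenase 1, the form that most cells which have it make continuously. It lies on chromosome 2 (chr2:36230426-36252272, plus strand, GRCm38; all gene positions are those of GENCODE M21). In microglia it stood at 433 CPM in aged CA, 430.3 in aged sham, 495 in young CA and 594 in young sham, each with an interval within 1.68% of the level. Young sham was thus the highest and the aged libraries lay together. The ratio of aged CA to aged sham was 1.01 (0.985 to 1.03) and that of young CA to young sham 0.833 (0.822 to 0.845). Between ages the ratio was 0.725 (0.710 to 0.739) for aged sham over young sham, and 5.49% of all genes had a lower one. Outside microglia it stood at 44.4 to 124 CPM in border-associated macrophages, 56.6 to 97.0 CPM in neutrophils and 101 CPM in the erythroid cells of aged sham, and these ranges overlapped. Of the 85 cells of the erythroid gate, 78 lay in clusters named microglia, and their median depth in aged sham was 774.5 UMIs. Their level is therefore not a clear value for a class outside microglia.

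With each microglial cell thinned to 2000 UMIs, Ptgs1 was seen in 52.5% of aged CA cells (51.1 to 54.0), 54.4% of aged sham, 59.6% of young CA and 66.0% of young sham. Without thinning these shares were 85.1%, 67.5%, 86.6% and 85.1%, at median depths of 10444.5, 3531.5, 9341 and 5726 UMIs. The thinned T cells, a class with little cyclooxygenase, had Ptgs1 in 3.57% of aged CA, 3.29% of aged sham, 8% of young CA and 5.13% of young sham cells, at median depths of 8712.5, 8752, 8531 and 10454 UMIs, so the share in microglia was above that background in each library. Thinning left out 179 microglia in aged CA, 1695 in aged sham, 498 in young CA and 756 in young sham that were shallower.

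Hpgds encodes the cytosolic synthase of prostaglandin D, an enzyme of blood-derived and tissue-resident immune cells (chr6:65117293-65144908, minus strand). Its level in microglia was 580.2 CPM in aged CA, 806 in aged sham, 532 in young CA and 876 in young sham. Both CA libraries were lower than both sham libraries, with ratios of 0.720 (0.708 to 0.732) in aged and 0.608 (0.6003 to 0.615) in young mice. Neither reached 2-fold, and 30.3% and 15.4% of all genes had lower ratios in the aged and the young comparison. Thinned cells with Hpgds made up 66.4% of aged CA, 76.2% of aged sham, 65.1% of young CA and 80.2% of young sham microglia, against 4.46%, 9.21%, 8% and 7.69% of T cells. Unthinned, the shares of microglia were 93.4%, 79.9%, 90.6% and 90.9%. Border-associated macrophages came next, at 295 CPM in aged CA, 457 in aged sham, 437 in young CA and 558 in young sham. Ptgs1 and Hpgds were both seen in 35.3% of thinned aged CA microglia, where the product of the single shares is 34.9%, and in 53.0% of young sham microglia, where it is 52.9%.

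Ptgs2 encodes cyclooxygenase 2, the inducible form, which some neurons also make at rest (chr1:150100031-150108227, plus strand). Ptges encodes the inducible membrane-bound synthase that turns prostaglandin H into prostaglandin E (chr2:30889471-30929863, minus strand). Both were 2-fold or more higher in young CA microglia than in young sham, Ptges and Ptger4 were so in aged CA against aged sham, and the 250 bases before the RefSeq transcription start of these 3 genes are shown for that reason. RefSeq sequences on GRCm38.p6 were found for 8 of the 9 genes, Alox5ap being the exception. The sequences run 5′ to 3′ on the gene's strand, from chr1:150099781-150100030 for Ptgs2, chr2:30903298-30903547 for Ptges and chr15:5244188-5244437 for Ptger4. The Ptges window lies inside the GENCODE span given above, because the RefSeq start differs from the GENCODE one. Its motif matches describe the RefSeq start only. Capitals mark matches to the motifs named after them.
Ptgs2: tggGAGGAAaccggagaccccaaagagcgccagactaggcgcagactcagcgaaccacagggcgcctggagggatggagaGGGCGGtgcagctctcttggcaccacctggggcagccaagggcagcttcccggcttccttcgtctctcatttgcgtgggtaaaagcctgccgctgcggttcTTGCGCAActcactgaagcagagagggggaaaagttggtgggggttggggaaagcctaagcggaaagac
Ptges: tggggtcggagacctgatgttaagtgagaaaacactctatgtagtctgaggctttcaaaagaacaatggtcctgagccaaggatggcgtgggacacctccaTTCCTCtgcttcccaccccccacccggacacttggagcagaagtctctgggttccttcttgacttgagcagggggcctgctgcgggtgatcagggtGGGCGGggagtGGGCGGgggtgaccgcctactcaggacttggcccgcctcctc
Ptger4: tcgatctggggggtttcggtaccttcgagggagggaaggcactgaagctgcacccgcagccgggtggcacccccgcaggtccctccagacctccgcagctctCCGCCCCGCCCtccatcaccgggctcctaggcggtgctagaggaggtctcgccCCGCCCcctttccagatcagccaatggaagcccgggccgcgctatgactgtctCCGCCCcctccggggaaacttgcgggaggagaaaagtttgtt

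The motifs were searched on both strands in the 250-base windows. GGGCGG, the GC box, was present in 4 of the 8 genes (Ptgs2, Ptges, Alox5 and Ptger4) and in 32.7% of the 32851 promoters in the table. GAGGAA, a core bound by the myeloid factor PU.1, was present in 6 of the 8 (Ptgs1, Ptgs2, Ptges, Hpgds, Alox5 and Lta4h) and in 23.3% of promoters. TTGCNNAA, a form bound by C/EBP factors, was present in Ptgs2 and Hpgds and in 9.56% of promoters. The TATA box TATAAA was in none of the 8 windows and in 12.4% of promoters. The E box CACGTG was likewise in none and in 6.02% of promoters, and the cyclic AMP response core TGACG in none and in 17.8%. A form bound by NF-kB (GGGA and TTCC with any 2 bases between them) was in none and in 1.21%. In Ptger4, 2 of the 4 GC boxes overlap by 1 base. These are matches of letters and were not tested as binding sites.

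Ptgs2 was rare in every library. Microglia held 23 UMIs in aged CA, 14 in aged sham, 76 in young CA and 5 in young sham, or 0.436 CPM (0.276 to 0.654), 0.436 (0.238 to 0.731), 0.847 (0.667 to 1.06) and 0.0866 (0.0281 to 0.202). Young CA was the highest, young sham the lowest, and the aged libraries lay between them. The ratio of young CA to young sham was 9.78 (4.01 to 31.0). In aged mice the total of both libraries was under 50 UMIs, so no ratio is given.

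The Ptgs2 UMIs of microglia sat in few cells. They came from 16 cells in aged CA, 13 in aged sham, 32 in young CA and 3 in young sham, and 1 young CA cell held 16 of the 76. Without the 3 young CA cells richest in Ptgs2, 43 UMIs were left and the ratio to young sham was 5.54 (2.20 to 17.9). With each cell given equal weight the log2 ratio was 1.58 in place of 3.29, and with 1 CPM added to both sides it was 0.77, short of 2-fold.

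Other classes held Ptgs2 at higher levels. Neutrophils had 6.18 CPM in aged CA (8 UMIs in 3 cells), 19.8 in aged sham (10 UMIs in 2 cells) and 3.77 in young CA (1 UMI). Neurons had 7.21 CPM in aged CA (5.05 to 9.98), 3.11 in aged sham (1.70 to 5.23), 15.3 in young CA (10.8 to 20.9) and 3.27 in young sham (1.83 to 5.40). Their ratio of CA to sham was 2.31 (1.22 to 4.65) in aged and 4.66 (2.51 to 9.11) in young mice. Ptgs1 (2.14, 1.53 to 3.01) and Alox5ap (3.26, 1.89 to 5.76) also passed 2-fold in young neurons. These were 3 of 6 genes with enough UMIs, and the share of all genes is not given for neurons. In aged neurons Ptgs1 (0.981) and Alox5ap (1.23) were within 2-fold. Median depth of neurons was 27249 UMIs in aged CA, 3957.5 in aged sham, 20692 in young CA and 30111 in young sham. Neurons should not bear CD45, and 733 passed the neuronal gate. Neuronal markers within microglia, with 8 of 8 seen in each library, were lower in CA than in sham: 88.7 CPM in aged CA, 287 in aged sham, 89.9 in young CA and 185 in young sham, summed over 8 markers. T cells, B cells and dendritic cells had 0 Ptgs2 UMIs in every library; in the 157 T cells of aged sham, 0 of 1475311 UMIs allows up to 2.03 CPM.

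Ptges was also rare, and its level differed between CA and sham at both ages. Microglia held 236 UMIs in aged CA, 14 in aged sham, 126 in young CA and 9 in young sham. That was 4.47 CPM (3.92 to 5.08), 0.436 (0.238 to 0.731), 1.40 (1.17 to 1.67) and 0.156 (0.0713 to 0.296). Both CA libraries stood above both sham libraries, and aged CA stood above young CA. The ratio of CA to sham was 10.3 (6.00 to 19.1) in aged and 9.01 (4.60 to 20.2) in young mice, and 99.4% and 98.6% of all genes had lower ratios. Aged CA over young CA gave 3.19 (2.56 to 3.99).

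The Ptges UMIs were spread over 171 aged CA, 11 aged sham, 96 young CA and 9 young sham microglia, with at most 5 in 1 cell. Leaving out the 3 richest CA cells gave ratios of 9.76 in aged and 8.23 in young mice. In microglia of at least 5000 UMIs, a check added for the difference in depth, the log2 ratios were 3.37 and 3.29, against 3.36 and 3.17 in all microglia. Equal weight per cell gave 2.60 and 1.90, and 1 CPM added to both sides gave 1.93 and 1.06. Summed markers of monocytes or macrophages in microglia, with 10 of 10 seen in each library, stood at 73.0 CPM in aged CA, 39.4 in aged sham, 246 in young CA and 19.7 in young sham, and their part in the Ptges difference was not tested.

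Among other classes Ptges was highest in monocytes or macrophages of aged CA, at 51.6 CPM (105 UMIs in 20 of 76 cells), against 6.94 in young CA (41 UMIs in 33 of 307 cells). The ratio was 7.43 (5.13 to 10.9). A single aged CA cell held 34 of the 105 UMIs, and without the 3 richest cells the ratio was 2.54 (1.56 to 4.11). Neutrophils had 16.2 CPM in aged CA, 11.9 in aged sham and 18.9 in young CA, with overlapping intervals. T, B and dendritic cells and oligodendrocytes had 0 Ptges UMIs in all libraries.

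Ptger4 encodes the prostaglandin E receptor 4, which raises cyclic AMP in the cell that bears it (chr15:5206661-5244187, minus strand). Microglia had 19.3 CPM in aged CA (18.1 to 20.5), 8.50 in aged sham (7.52 to 9.57), 8.63 in young CA (8.04 to 9.26) and 6.96 in young sham (6.30 to 7.68). Aged CA stood alone above the other 3 libraries, and the intervals of aged sham and young CA overlapped. The ratio was 2.27 (1.98 to 2.60) for aged CA over aged sham, 1.24 (1.10 to 1.40) for young CA over young sham and 2.23 (2.03 to 2.46) for aged CA over young CA. With equal weight per cell the last was 0.77 on the log2 scale in place of 1.16 and no longer 2-fold. Ptger4 overlaps an exon of Ttc33 on the other strand, and whether counting used the strand is not given in the sources used here. Ttc33 was at 25.7 CPM in aged CA, 21.3 in aged sham, 21.7 in young CA and 19.9 in young sham microglia.

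Ptger4 was higher in T cells and dendritic cells than in microglia. T cells had 47.4 CPM in aged CA (34.9 to 62.8), 83.4 in aged sham (69.3 to 99.5), 37.1 in young CA (16.02 to 73.1) and 62.3 in young sham (42.9 to 87.4). In T cells the ratio of aged CA to aged sham was 0.568 (0.398 to 0.799). The 23 dendritic cells of young CA had 95.9 CPM (69.1 to 130), of which 14 of 42 UMIs came from 1 cell. Monocytes or macrophages had 15.2 CPM in aged CA and 32.2 in young CA, a ratio of 0.473 (0.313 to 0.694). That difference fell short of 2-fold with no cells left out as mixed (log2 -0.89) and with a second list of at most 0.5 of the first (log2 -0.94).

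**Figure D3:**
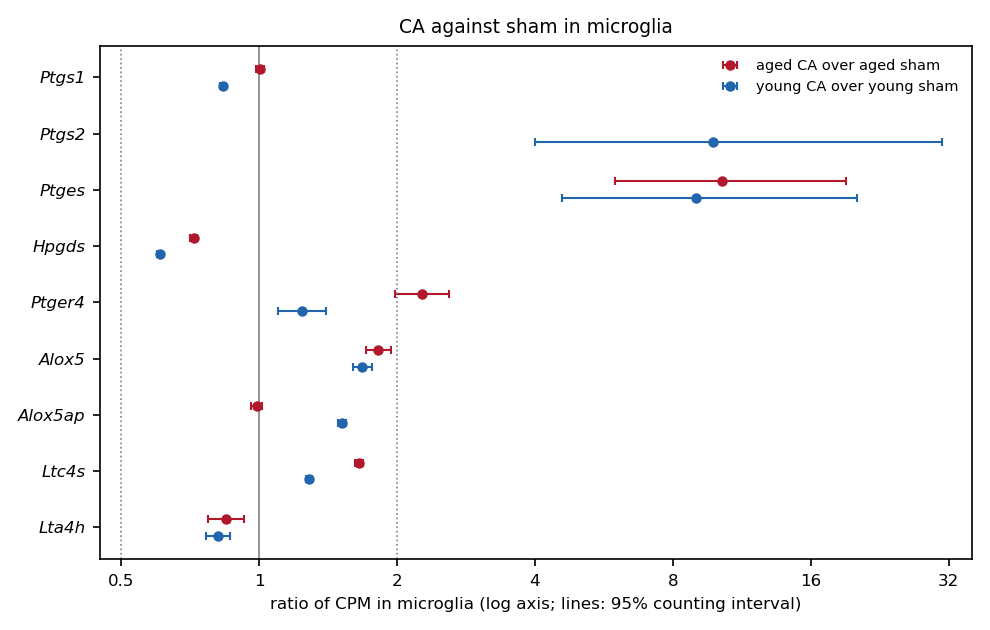
Ratio of CPM in microglia, CA over sham, on a log axis. Points are ratios, lines are 95% counting intervals, the solid line marks 1 and dotted lines mark 0.5 and 2; Ptgs2 in aged mice had under 50 UMIs and is not drawn. Ptges lay near 10.3 in aged and 9.01 in young mice, Alox5 and Ltc4s lay between 1 and 2 at both ages, and Hpgds lay below 1 at both.

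Alox5 encodes 5-lipoxygenase, which opens the leukotriene branch (chr6:116410077-116461178, minus strand). Microglia had 72.1 CPM in aged CA, 39.6 in aged sham, 66.7 in young CA and 39.7 in young sham, each with an interval within 5.65% of the level. Both CA libraries lay above both sham libraries, and the sham libraries were alike, with a ratio of 0.998 (0.931 to 1.07). The ratio of CA to sham was 1.82 (1.71 to 1.94) in aged and 1.68 (1.60 to 1.77) in young mice, short of 2-fold, with 90.5% and 89.1% of all genes below. In thinned microglia Alox5 was seen in 12.3% of aged CA, 7.08% of aged sham, 12.4% of young CA and 6.67% of young sham cells, against 0%, 0%, 8% (2 of 25 cells) and 0% of T cells. Neutrophil markers in microglia summed to 209 CPM in aged CA, 882 in aged sham, 406 in young CA and 534 in young sham, and their part in the level of Alox5 was not tested. At the thinned depth the Clopper-Pearson interval for 0 of the 152 T cells of aged sham reaches 2.40% of cells. Without thinning, 2.55% of that library's T cells had a UMI. Unthinned, Alox5 was seen in 41.2% of aged CA, 15.8% of aged sham, 36.8% of young CA and 19.9% of young sham microglia.

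Neutrophils had the highest Alox5, at 208 CPM in aged CA (184 to 234), 192 in aged sham (156 to 234) and 211 in young CA (159 to 274). The neutrophil libraries did not differ beyond these intervals. Border-associated macrophages had 64.9 CPM in aged CA, 103 in aged sham, 62.1 in young CA and 57.2 in young sham, and their range overlapped that of microglia.

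Alox5ap encodes the membrane protein that presents arachidonic acid to 5-lipoxygenase (chr5:149264767-149288153, plus strand). In microglia it stood at 220.2 CPM in aged CA, 223 in aged sham, 299 in young CA and 197 in young sham. Young CA stood above the other 3 libraries. The ratio of CA to sham was 0.988 (0.959 to 1.02) in aged and 1.52 (1.48 to 1.55) in young mice, and aged CA over young CA gave 0.736 (0.721 to 0.753). In aged mice the sign of the log2 ratio turned with TMM scaling, which centres the bulk of genes on no change (0.06 in place of -0.02). Thinned cells with Alox5ap made up 29.1% of aged CA, 32.5% of aged sham, 37.7% of young CA and 26.7% of young sham microglia, and 65.97%, 50.9%, 71.9% and 56.4% unthinned.

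Levels of Alox5ap were higher in the other myeloid classes than in microglia. Neutrophils had 2599 CPM in aged CA (3363 UMIs), 694 in aged sham (351) and 1403 in young CA (372). Monocytes or macrophages had 1259 CPM in aged CA and 984 in young CA, and border-associated macrophages had 485 CPM in aged CA, 255 in aged sham, 426 in young CA and 258 in young sham. In the macrophages of the brain's borders the ratio of CA to sham was 1.90 (1.46 to 2.52) in aged and 1.65 (1.34 to 2.05) in young mice. In Leiden clusters, where this class took in more cells of the microglial gate than of its own, the aged log2 ratio was 0.30 in place of 0.93.

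Ltc4s encodes the synthase that joins leukotriene A to glutathione (chr11:50236461-50238616, minus strand). Microglia had 639 CPM in aged CA, 386 in aged sham, 581 in young CA and 451 in young sham, with intervals within 1.77% of each level. Both CA libraries were above both sham libraries, by 1.65-fold (1.62 to 1.69) in aged and 1.29-fold (1.27 to 1.31) in young mice. Between ages the ratio was 1.10 (1.08 to 1.11) after CA and 0.857 (0.839 to 0.875) in sham. Thinned cells with Ltc4s made up 64.6% of aged CA, 49.0% of aged sham, 64.0% of young CA and 54.3% of young sham microglia, and 88.9%, 64.1%, 89.2% and 78.03% unthinned. The antisense transcript Gm26542 overlaps an exon of Ltc4s on the other strand, and stood at 200.2 CPM in aged CA, 244 in aged sham, 199.7 in young CA and 328 in young sham microglia. Its part in the counts of Ltc4s was not tested.

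Border-associated macrophages had 302 CPM of Ltc4s in aged CA (259 to 350), 203 in aged sham (153 to 264), 345 in young CA (294 to 402) and 582 in young sham (524 to 645). Young sham was the one library in which this class stood above microglia. CA over sham gave 1.49 (1.09 to 2.05) in aged and 0.592 (0.489 to 0.715) in young mice. Aged sham over young sham gave 0.349 (0.258 to 0.464), 1 of 5 genes past 2-fold in a comparison where 6.84% of all genes were. In Leiden clusters, where this class took in many cells of the microglial gate, that log2 ratio was -0.64 in place of -1.52. The 12 microglial markers summed to 1234 CPM in these cells in aged CA, 3962 in aged sham, 3060 in young CA and 4428 in young sham, and their part in the level of Ltc4s was not tested.

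Lta4h encodes the hydrolase that makes leukotriene B (chr10:93453411-93484875, plus strand), and it was spread more evenly over classes. Microglia had 22.7 CPM in aged CA (21.4 to 24.0), 26.8 in aged sham (25.0 to 28.6), 26.9 in young CA (25.8 to 28.0) and 33.0 in young sham (31.6 to 34.6). Ratios of CA to sham were 0.848 (0.776 to 0.926) in aged and 0.813 (0.766 to 0.864) in young mice. Neutrophils had 82.7 CPM in aged CA (67.8 to 99.9), 255 in aged sham (213 to 303) and 268 in young CA (209 to 338), so that aged CA stood below the other libraries. T cells came to 37.5 CPM in aged CA, 59.0 in aged sham, 37.1 in young CA and 90.6 in young sham.

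In neutrophils, the aged CA library differed from aged sham by 2-fold or more for 2 of the 6 genes with enough UMIs, where 16.4% of all genes did. Alox5ap was higher by 3.74-fold (3.35 to 4.19) and Lta4h was lower, with a ratio of 0.324 (0.248 to 0.422). Both were past 2-fold in the same direction under each definition of the class that was tried. Against young CA, aged CA neutrophils differed for 3 of 6 genes, where 18.6% of all genes did: Lta4h was lower (0.309, 0.227 to 0.423), and Hpgds (11.3, from 110 against 2 UMIs) and Ltc4s (4.10, from 120 against 6 UMIs) were higher. Microglial markers stood at 1122 CPM in aged CA, 2461 in aged sham and 799 in young CA neutrophils, and their part in the levels of Hpgds and Ltc4s was not tested. Without the 3 richest aged CA cells these ratios were 6.87 and 2.64. Median depth was 15053.5 UMIs in aged CA, 2424.5 in aged sham and 9426 in young CA neutrophils, and neutrophil markers made up 302923, 324899 and 356613 CPM.

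Monocytes or macrophages numbered 76 in aged CA and 307 in young CA, and 3 of 8 genes differed by 2-fold or more between them, where 15.6% of all genes did. Ptges and Ptger4 are described above. Alox5 was 22.1 CPM in aged CA (16.1 to 29.6) and 4.404 in young CA (2.88 to 6.45), a ratio of 5.02 (3.03 to 8.48). It was 2.24 (1.17 to 4.21) without the 3 richest cells, and 1.27 on the log2 scale in place of 2.33 in Leiden clusters. Neutrophil markers summed to 13304 CPM in the aged CA cells, with 10 of 13 seen and Ly6g, Camp and Ltf at 0, and to 309.6 CPM in the young CA cells, with 12 of 13 seen and Mmp9 at 0. Their part in the levels of Alox5 and Ptges was not tested.

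In border-associated macrophages no gene of 5 passed 2-fold between young CA and young sham and none of 4 between aged CA and aged sham, where 5.86% and 21.2% of all genes did. Ptgs1 was 44.4 CPM in aged CA and 103 in young CA, a ratio of 0.432 (0.257 to 0.710), 1 of 5 genes in a comparison where 9.62% did. That direction turned with Leiden clusters (log2 1.29 in place of -1.21), where the class took in more cells of the microglial gate than of its own. The difference fell short of 2-fold with a gate of 4 markers (log2 -0.98) and with no cells left out as mixed (log2 -0.92). It did so too with a second list of at most 0.5 of the first (log2 -0.74). In T cells, Lta4h was lower in young CA than in young sham (0.410, 0.167 to 0.874, 8 against 48 UMIs), the only gene with enough UMIs, where 10.5% of all genes passed 2-fold. None of 5 genes passed in aged CA against aged sham T cells and none of 3 in aged against young sham, where 12.7% and 7.61% did. Between the CA libraries the T cell ratio of Hpgds was 1.999 (0.799 to 6.44), just short, and Ptger4 was within 2-fold as well, where 15.3% of all genes passed.

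Within microglia, 4 gates on other genes were used, 2 of them named by only some of their markers. The cycling gate had Mki67, Top2a, Cdk1, Birc5, Ccnb1, Ccnb2, Cenpf and Pbk. The Spp1 and Lpl gate had Spp1, Lpl, Gpnmb, Igf1, Fabp5 and Csf1. The interferon gate had Ifit1, Ifit2, Ifit3, Isg15, Rsad2, Cxcl10, Oasl2 and Irf7. The Ccl3 and Ccl4 gate had Ccl3, Ccl4, Tnf, Il1b, Il1a and Nfkbiz. A thinned cell was in a state with any 2 or more of its markers, so it could pass without the named genes. The states are thus ranges of a count, and many cells lay at the limit. In young CA the gates took in 403, 494, 1820 and 705 of 8068 cells, of which 148, 398, 1026 and 513 had exactly 2 markers. In aged CA they took in 11, 74, 1064 and 1733 of 4643 cells, and in each sham library fewer than in CA of the same age, except for the 24 cycling cells of aged sham.

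**Figure D4:**
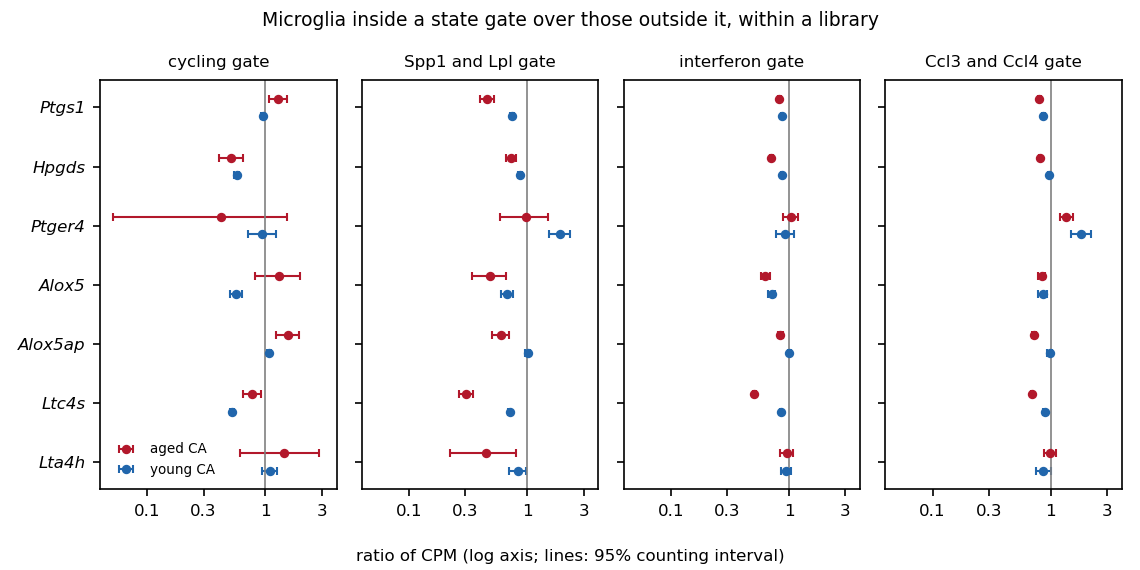
Ratio of CPM in microglia inside a state gate to those outside it, within the aged CA and the young CA library, on a log axis with 95% counting intervals. Ltc4s lay below 1 in every gate, and Hpgds in cycling cells was 0.517 in aged CA and 0.570 in young CA.

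Ptgs2 went with the Ccl3 and Ccl4 gate in young CA. Gated cells had 6.78 CPM (60 UMIs) and the others 0.187 (15 UMIs), a ratio of 36.2 (20.3 to 68.7). The UMIs sat in few cells, a spread that this interval does not cover. Of the 76 Ptgs2 UMIs in all young CA microglia, 43 were left without the 3 richest cells. The gate ratio was not taken without those cells. In aged CA the values were 0.713 (14 UMIs) inside and 0.274 (9 UMIs) outside, a ratio of 2.60 (1.05 to 6.81). Under the Spp1 and Lpl gate of young CA the ratio of Ptgs2 was 3.995 (2.24 to 6.83), from 19 UMIs inside and 56 outside. Under the Ccl3 and Ccl4 gate Ptges was 6.31 CPM inside and 3.38 outside in aged CA (1.87, 1.43 to 2.44), and 1.47 against 1.40 in young CA (1.05, 0.543 to 1.87). Ptger4 was higher inside the Ccl3 and Ccl4 gate in both CA libraries, by 1.36-fold (1.20 to 1.54) in aged and 1.81-fold (1.49 to 2.20) in young mice, and by 2.59-fold (1.92 to 3.46) in aged sham. In young sham it rested on 7 UMIs inside (0.736, 0.294 to 1.53). Ptger4 and Ptges were not particular to this gate. Under the Spp1 and Lpl gate Ptger4 had ratios of 1.88 (1.51 to 2.32) in young CA and 0.969 (0.589 to 1.51) in aged CA. There it was 7.12 (4.27 to 11.2, 20 UMIs inside) in aged sham and 2.55 (0.824 to 6.01, 5 UMIs inside) in young sham. Under the interferon gate Ptges had ratios of 1.77 (1.35 to 2.33) in aged CA and 1.07 (0.698 to 1.61) in young CA.

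Hpgds, Ltc4s, Ptgs1 and Alox5 were lower inside several gates. In cycling cells of young CA, Hpgds was 315 CPM against 552 outside (0.570, 0.547 to 0.594) and Ltc4s 314 against 604 (0.520, 0.498 to 0.542), while Ptgs1 was 476 against 497 (0.957, 0.924 to 0.990). In Spp1 and Lpl cells of aged CA, Ltc4s was 196 CPM against 647 (0.303, 0.264 to 0.347), Ptgs1 201 against 438 (0.458, 0.399 to 0.524) and Alox5 35.3 against 72.9 (0.485, 0.343 to 0.667). The same genes in young CA had ratios of 0.709, 0.748 and 0.674. Under the interferon gate Ltc4s stood at 372 against 728 CPM in aged CA (0.511, 0.495 to 0.526) and at 514 against 602 in young CA (0.854, 0.836 to 0.872). Median depth inside and outside was 18087 and 9646 UMIs for the cycling gate in young CA, and 14320 and 10649 for the Spp1 and Lpl gate in aged CA.

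The rest of the pathway was taken from 7 lists of 54 genes, of which 33 had enough UMIs in microglia at both ages. Between young CA and young sham, 5 of these lists had at least 1 gene higher or lower by 2-fold. Among genes of arachidonate release 1 of 10 was higher and 1 lower, of prostanoid synthesis 0 and 1 of 6, of prostanoid breakdown and transport 1 and 0 of 4, of prostanoid receptors 1 and 1 of 3, and of leukotriene synthesis, export and breakdown 2 and 0 of 8. Between aged CA and aged sham the same lists had 1 and 3 of 10, 0 and 2 of 6, 0 and 2 of 5, 0 and 1 of 2, and 2 and 2 of 8. Lipoxygenases had 0 and 0 of 2 in young and 0 and 1 of 2 in aged mice, and leukotriene and lipoxin receptors 0 and 0 of 3 in young and 1 and 0 of 3 in aged mice. Among all genes 7.67% were higher and 8.5% lower in the young comparison, and 7.46% and 17.0% in the aged one. The median log2 ratio of the list of leukotriene synthesis, export and breakdown was 0.61 in young and 0.21 in aged mice, that of arachidonate release -0.08 and -0.41, and that of all genes -0.13 and -0.07.

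**Figure D5:**
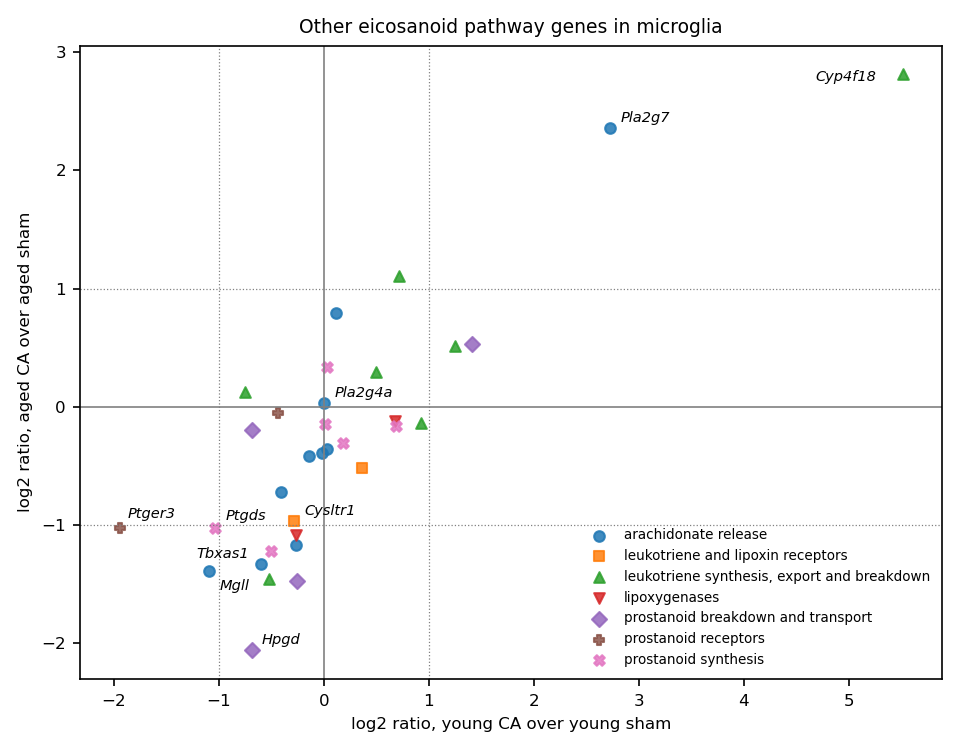
Log2 ratio of CA to sham in microglia for pathway genes with at least 50 UMIs at both ages, young mice on the horizontal and aged mice on the vertical axis. Dotted lines mark 2-fold; Cyp4f18 and Pla2g7 lie above it at both ages, and Ptger3, Mgll and Ptgds below.

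Of the 33 genes, 5 passed 2-fold the same way at both ages, as did 9.69% of the 15023 genes with enough UMIs at both ages. Cyp4f18, an enzyme that hydroxylates leukotriene B, was 23.4 CPM in aged CA against 3.33 in aged sham (7.03, 5.76 to 8.64) and 31.7 in young CA against 0.693 in young sham (45.7, 33.5 to 64.1). Pla2g7, the plasma form of platelet-activating factor acetylhydrolase, was 27.3 against 5.32 CPM in aged mice (5.13, 4.37 to 6.04) and 41.1 against 6.22 in young mice (6.62, 5.94 to 7.40). It was the 1 gene higher in the list of arachidonate release at each age, though it is named for another substrate. No other gene of that list was 2-fold higher at either age. Markers of monocytes or macrophages within microglia, given above for Ptges, were also higher in CA than in sham at both ages. Their part in the levels of Cyp4f18 and Pla2g7 was not tested. Ptger3, another prostaglandin E receptor, was lower, at 4.99 against 10.2 CPM in aged (0.490, 0.415 to 0.578) and 4.11 against 15.8 in young mice (0.260, 0.230 to 0.294). Mgll, the lipase that frees arachidonic acid from an endocannabinoid in the brain, was lower too, at 52.7 against 138 CPM in aged (0.381) and 73.9 against 157 in young mice (0.470).

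Ptgds, the other prostaglandin D synthase, best known from the choroid plexus and meninges, was 5.99 against 12.2 CPM in aged (0.491) and 3.78 against 7.74 in young mice (0.488). Markers of ependymal and choroid plexus cells within the microglia moved with it, at 2.54 CPM in aged CA, 420.1 in aged sham, 1.48 in young CA and 107 in young sham, with 5 or 6 of 6 markers seen in each library, and their part was not tested.

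Other named genes of the pathway did so at 1 age or neither. Hpgd, which inactivates prostaglandins, was 98.6 CPM in aged CA, 412 in aged sham, 319 in young CA and 514 in young sham, with ratios of 0.240 (0.232 to 0.247) in aged and 0.621 (0.611 to 0.632) in young mice. Tbxas1, the thromboxane synthase, was 210 CPM in aged CA against 490.3 in aged sham (0.428, 0.418 to 0.439) and 412 in young CA against 583 in young sham (0.707, 0.697 to 0.718). Pla2g4a, the phospholipase that frees arachidonic acid from membranes, had ratios of 1.02 (0.990 to 1.05) in aged and 1.003 (0.981 to 1.03) in young mice. Cysltr1, a receptor of cysteinyl leukotrienes, had ratios of 0.511 (0.486 to 0.537) in aged and 0.823 (0.797 to 0.850) in young mice. Ltb4r1, a receptor of leukotriene B, stood at 0.739 CPM in aged CA, 1.06 in aged sham, 0.936 in young CA and 0.727 in young sham. Mgst1, a microsomal glutathione transferase, had 10 UMIs in aged CA against 41 in aged sham (0.149) and too few UMIs for a ratio in young mice.

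Genes most like each member were taken over 27 points (a class in a library with at least 20 cells) by Pearson r of log2(CPM + 1), among 13950 genes. The points share 4 libraries and classes, so r is a description. Among the genes most like Ptgs1 were P2ry12 (r = 0.904), itself a marker of the gate that made the microglial class, and Liph (0.903). Hpgds was most like Gm26542 (0.940) and Ltc4s (0.933), itself a member. Ltc4s was most like C1qc (0.961), C1qa (0.958) and C1qb (0.943), the genes of complement component C1q. Alox5ap was most like Nfam1 (0.931) and Tyrobp (0.915), Alox5 like Siglece (0.921), and Ptges like Lrg1 (0.883). Ptger4 was most like Npm3 (0.890), Lta4h like Ppp2r5a (0.833) and Ptgs2 like Slco4c1 (0.812).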

How the data were processed

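Libraries were made with 10x Genomics 3′ chemistry, per the labels' protocols. The authors deposited raw UMI counts per gene and barcode, made with Cell Ranger 7.1.0 on mm10, per the submitters' processing notes; annotation, strand and intron settings are not given in the sources used here. Counts are whole numbers, checked on the files. Depth was 44277472 to 115892682 UMIs per library.

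Barcodes with at least 500 UMIs, 200 genes and at most 10% mitochondrial UMIs were kept, the mitochondrial limit removing 902 in aged CA, 162 in aged sham, 663 in young CA and 308 in young sham, and the others 4 in aged CA. Scrublet's own threshold marked 0 to 2 barcodes per library, so the highest scores were removed at 0.8% per 1000 cells (277, 455, 821 and 610). Cells were put in classes with 18 marker lists (Python 3.11.15, scanpy 1.11.5), and Leiden clusters with igraph 0.11.9 were the alternative. The gate's form was set after class sizes had been seen. Summed counts gave CPM with exact Poisson intervals, and ratios have exact conditional binomial intervals (scipy 1.17.1). A group at 0 was set to 3 counts per library. TMM factors came from edgeR 4.0.16 in R 4.3.3. Shares used cells thinned to 2000 UMIs with Clopper-Pearson intervals. The ratio functions were tested on simulated data.

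Named pathway genes were those with 2-fold changes the same way at both ages, at most 4 per direction, and 7 chosen by name; the 3 most alike genes per member were ranked by r, and 1 to 3 are printed, with 1 gene not reported here. The members and lists were chosen with earlier results of these data known. Positions are from GENCODE M21, promoters from RefSeq.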

Additional observations from a re-analysis of the deposited data

Results flagged for a closer look

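Ltc4s in border-associated macrophages moved in opposite directions after CA at the 2 ages. The ratio of CA to sham was 1.49 (1.09 to 2.05) in aged mice and 0.592 (0.489 to 0.715) in young mice, from 177 and 55 UMIs in aged CA and aged sham, and 161 and 366 in young CA and young sham. Each ratio compares 1 library with 1 other, so the difference between the ages was not tested. Cells of this class numbered 66 in aged CA, 23 in aged sham, 55 in young CA and 69 in young sham. In Leiden clusters the log2 ratios were 0.85 in aged and -1.48 in young mice, against 0.57 and -0.76. The Leiden class held 403 cells of the microglial gate and 170 mixed cells, beside 210 of its own gate. Its values therefore do not describe the same cells.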

How the results depend on the processing

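No paired analysis was possible because each group is 1 library, and leaving out a replicate was not possible for the same reason. Of the counts of members past 2-fold and of the count of members with 1 highest class (5), 106 of 113 values under other settings stayed within 1.5 times. The others were as follows: between young CA and young sham, 1 member was higher with a pseudocount of 1 CPM in place of 2; between aged sham and young sham, 1 was higher with genes of 20 UMIs allowed and 2 with genes of 1 UMI, in place of 0; between aged CA and young CA, 1 was higher with equal weight per cell in place of 2, and 1 was lower at a mitochondrial limit of 20%, in Leiden clusters and in cells of at least 5000 UMIs, in place of 0. The cause was not tested, except that allowing fewer UMIs admits more genes. Ptgs1 in border-associated macrophages, aged CA against young CA, had a log2 ratio of 1.29 in Leiden clusters in place of -1.21. That Leiden class held more cells of the microglial gate than of its own.

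Single log2 ratios changed sign in 10 of 435 values in microglia and 19 of 308 in other classes. In microglia the sign changes were in Ptgs1, Alox5ap, Alox5 and Ptger4 where the main value was within 0.29 of 0. Between young CA and young sham the median log2 ratio of all genes was 0.01 with TMM scaling in place of -0.13, and each member's was higher by the same amount. Unthinned shares of cells differed beyond the interval in 34 of 36 values. Depth limits Ptgs2 and Ptges most, whose intervals reach 133% and 89.8% of a level. The alternatives of at least 5000 UMIs, no cells left out as mixed, a second list at most 0.5 and the 3 richest cells left out were added after the data had been seen.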
